A study of Mus musculus with 2 samples.

Results

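The levels of 10 G1 regulators were followed across the cells of embryonic mouse eyecups with and without the transcription factors Six3 and Six6. They are the D cyclins Ccnd1, Ccnd2 and Ccnd3, the E cyclins Ccne1 and Ccne2, the Cip/Kip inhibitors Cdkn1a, Cdkn1b and Cdkn1c, and the growth arrest genes Gadd45a and Gadd45g. They were chosen by symbol among the 31053 genes of both count matrices, with earlier results of these data known, and each symbol matched 1 gene.

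The data are single-cell RNA-seq counts (10x Genomics 3' kit, version 3) of eyecups at E13.5, dissected with retina, lens and blood. The control library (Six3+/-;Six6+/-) came from an embryo heterozygous for both genes and without Cre. The DKO library (Six3F/F;Six6-/-;a-Cre) came from a littermate in which Six6 was lost in the germline, whereas floxed Six3 was removed by a-Cre, a Cre driven by a retinal Pax6 enhancer that acts in the peripheral retina, so that Six3 was retained in central cells. The control embryo therefore carried 1 mutant copy of each gene and was not wild type. Each genotype was represented by the eyecups of 1 embryo and by 1 library. No difference between genotypes could be tested against a spread between animals, and genotype, embryo and library cannot be told apart. Values are given with exact 95% Poisson or binomial intervals, which cover counting error only, and a gene is called higher or lower where 2 groups of cells differed more than 1.5-fold with at least 50 UMIs (unique molecular identifiers, 1 per captured RNA molecule) between them.

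D cyclins bind Cdk4 and Cdk6 and are the link between outside signals and the cell cycle, since they start the phosphorylation of the retinoblastoma protein that releases E2F factors. E cyclins are E2F targets that activate Cdk2 at the start of S phase. Cip/Kip inhibitors hold these kinases in check as progenitors leave the cycle, and Gadd45 proteins are small stress and growth arrest proteins. In the embryonic retina Ccnd1 is the D cyclin of dividing progenitors, whereas Cdkn1b and Cdkn1c are the inhibitors best known for cell cycle exit.

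After the study's filters 9822 control and 12146 DKO cells remained, with medians of 7620 and 5879 UMIs per cell, and 20 barcodes occurred in both libraries. The members accounted for 135875 control and 125791 DKO UMIs. Cells were clustered without the members, and 3 classes were named from markers: progenitor-like cells (clusters 0, 1 and 5; 3680 control and 3123 DKO cells), neurogenic-like cells (clusters 3 and 10; 1314 and 1648 cells) and ganglion-like neurons, called neuronal here (clusters 7 and 8; 966 and 1520 cells). All 10 progenitor markers led in each progenitor-like cluster and all 10 neurogenic markers in both neurogenic-like clusters. Other lists led in some of them too, with 100% of the ciliary margin list in cluster 1, 83.3% of the photoreceptor and 71.4% of the forebrain or thalamic eminence list in cluster 3 and 66.7% of the photoreceptor list in cluster 10. The largest cluster of a class was not always the same in both libraries: cluster 0 in control and cluster 1 in DKO progenitor-like cells, and cluster 7 in control and cluster 8 in DKO neurons. Six6 UMIs stood at 360 CPM (UMIs of the gene per 1000000 UMIs of the group of cells) in control and 46.9 in DKO progenitor-like cells, and Six3 at 298 and 236. In neurogenic-like cells Six3 stood at 287 CPM in control and 265 CPM in DKO, and in neuronal cells at 746 and 830 CPM. In the same order Six6 stood at 210 and 50.6 CPM and at 146 and 42.8 CPM. In DKO cells clustered alone, 44 of the 1648 neurogenic-like cells fell in subclusters with Six3 below 50% of control. Differences in neurogenic-like and neuronal cells are therefore not read as values of cells low in Six3. UMIs at the 3' end lie outside the removed exon of Six3, so they cannot show by themselves that the gene was deleted.

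The levels of the members in control cells differed by class and cluster (plot of levels by cluster). Ccnd1 stood at 1187 CPM (95% interval 1175 to 1198) in progenitor-like, 649 in neurogenic-like and 30.8 in neuronal cells. Ccnd2 stood at 126, 23.2 and 6.41 CPM and Ccnd3 at 128, 42.0 and 14.3 CPM in the same order. All 3 D cyclins were thus highest in progenitor-like cells and lowest in neurons.

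**Figure D1:**
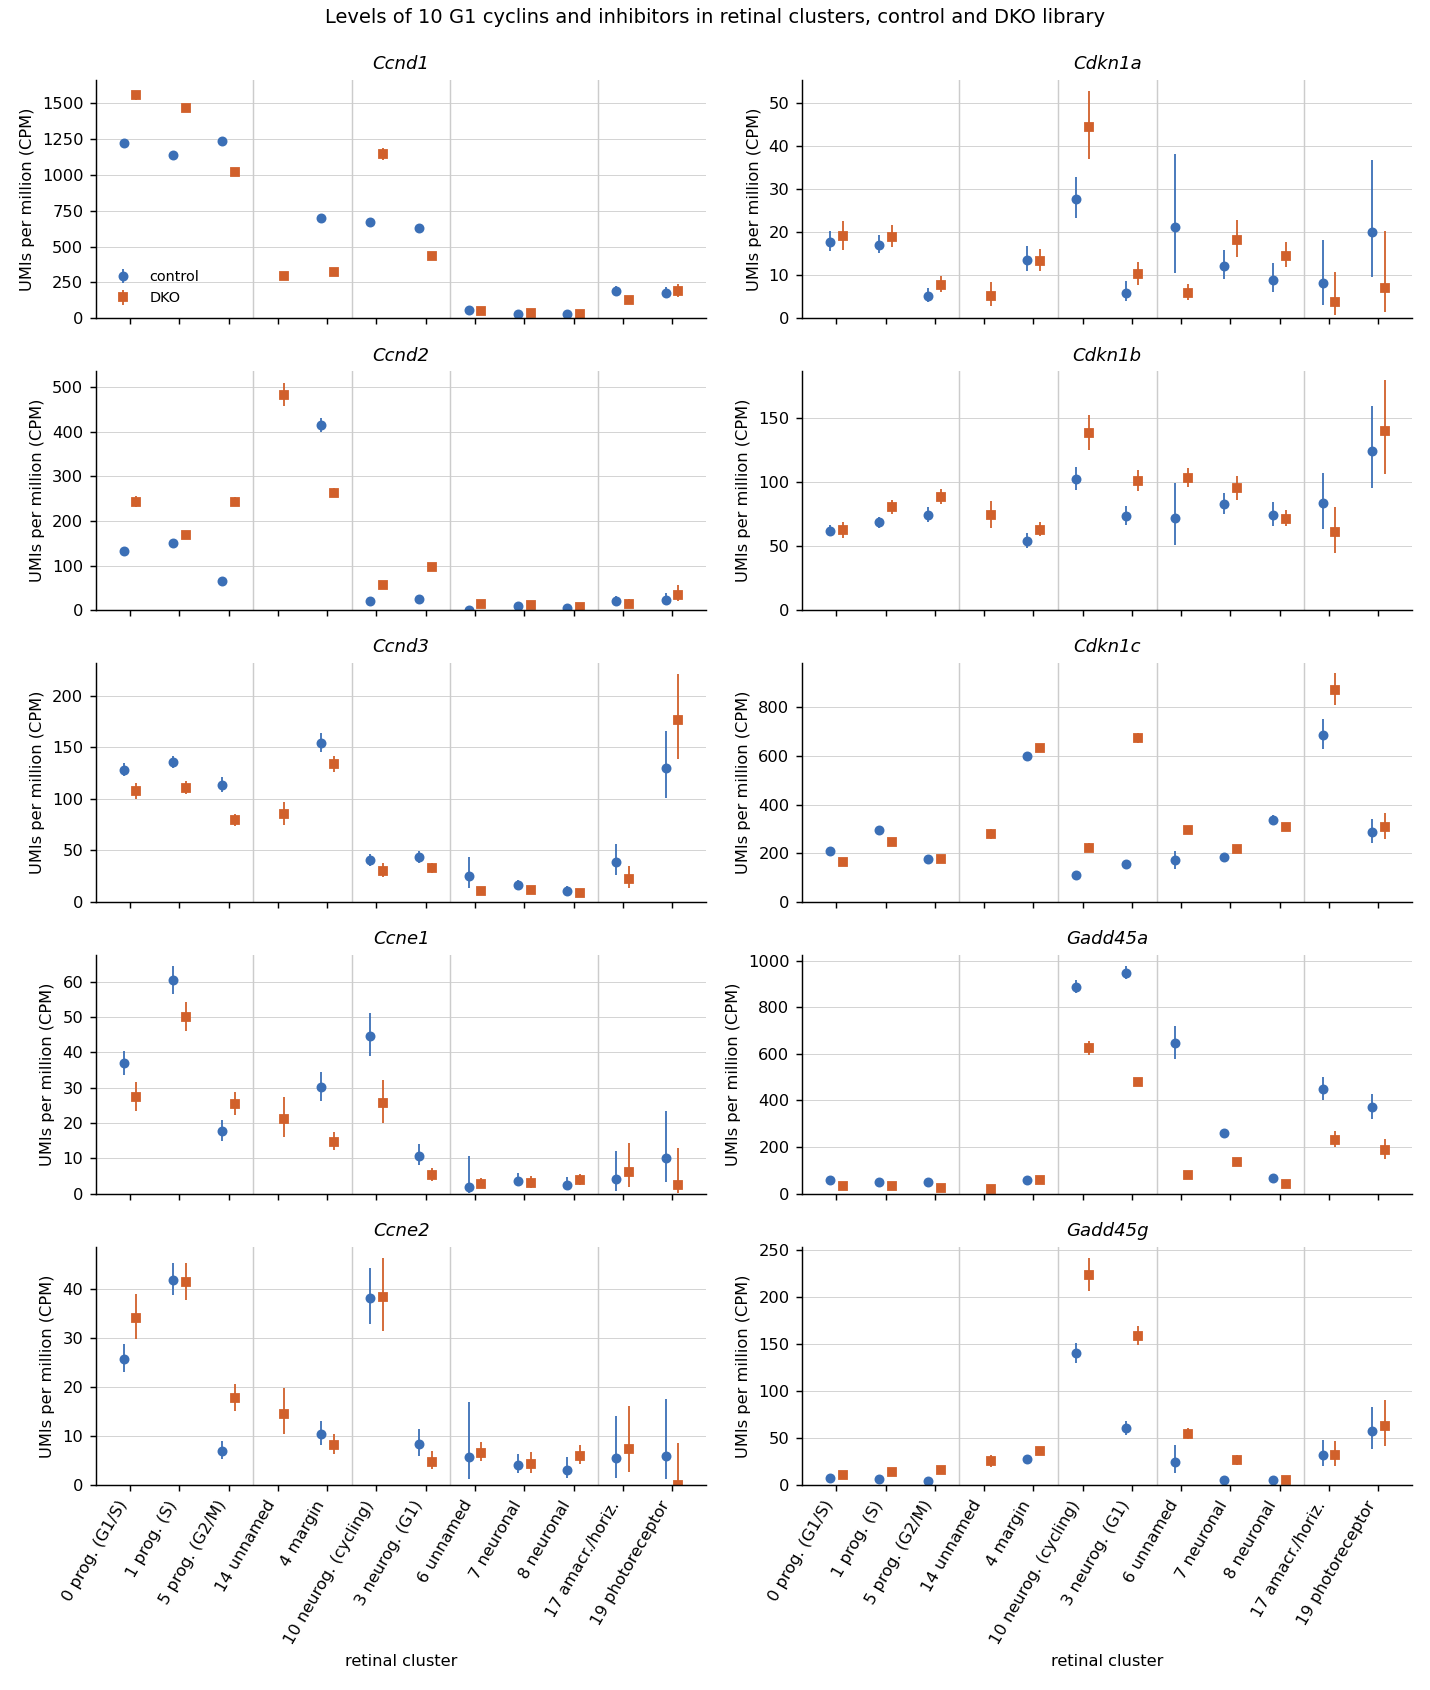
Level of each gene in CPM (vertical axes) in 12 retinal clusters (horizontal axes), control library as circles and DKO library as squares, with exact 95% Poisson intervals. Gadd45a stands highest in the neurogenic-like clusters 3 and 10 of both libraries, and Ccnd1 in control cells stands highest in the progenitor-like clusters 0, 1 and 5, whereas in DKO cells cluster 10 (1145 CPM) stands above cluster 5 (1022 CPM); groups under 50 cells are not drawn.

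Neurogenic-like control cells, set against progenitor-like ones, held 7 of 10 members past 1.5-fold (2 higher, 5 lower), where 31.4% of all genes tested were past it (12.8% higher, 18.6% lower). Gadd45a stood at 52.3 CPM in progenitor-like and 919 CPM in neurogenic-like cells, a ratio of 17.6 (log2 ratio 4.13, interval 4.06 to 4.21). Gadd45g stood at 6.70 and 100.5 CPM (log2 ratio 3.91, interval 3.70 to 4.11). Both Gadd45 genes were therefore higher, against a median log2 ratio of -0.03 over all genes. The Gadd45g value rests on a low progenitor-like level and was 2.73 with 10 CPM added. That of Gadd45a was 3.90 with 10 CPM added. Its progenitor-like share of cells overlapped that of red blood-like cells (given below), so the ratio of 17.6 is not an exact size. Ccnd1, Ccnd2, Ccnd3, Ccne1 and Cdkn1c were lower, with log2 ratios of -0.87, -2.44, -1.61, -0.64 and -0.83. Ccnd1 was within 1.5-fold when standardised to the phases of progenitor-like cells (-0.36), and Cdkn1c at a clustering resolution of 1 (-0.49). The Ccne1 value joined unlike clusters, at -2.00 with cluster 3 alone and 0.057 with cluster 10 alone. Ccne2, Cdkn1a and Cdkn1b stayed within 1.5-fold in the class. Ccne2 and Cdkn1a were at -1.76 and -1.30 with cluster 3 alone and at 0.42 and 0.92 with cluster 10 alone. Cdkn1b was at 0.60 with cluster 10 alone, just past 1.5-fold.

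Neuronal control cells, set against neurogenic-like ones, held 9 of 10 members past 1.5-fold, where 47.6% of all genes were (23.8% higher, 23.8% lower). Cdkn1c, a brake on cyclin-dependent kinases, was the only member higher, at 250.3 against 135 CPM (log2 ratio 0.89, interval 0.79 to 1.0). Cdkn1b did not pass, at 79.2 against 87.8 CPM. The other 8 members were lower, Ccnd1 by the most (log2 ratio -4.40), followed by Gadd45g (-4.09), Ccne1 (-3.16) and Ccne2 (-2.65). The Ccnd1 value was -2.03 at a clustering resolution of 0.3. Cdkn1a, among the 8 at -0.63, was 0.86 against cluster 3 alone and -1.36 against cluster 10 alone, and it stayed past 1.5-fold in 7 of 15 alternatives. Gadd45a stood at 177 CPM in neurons, with 259 CPM in cluster 7 and 66.4 CPM in cluster 8.

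Among 40 other G1 to S genes, 38 had enough UMIs in both of these comparisons. From progenitor-like to neurogenic-like control cells 8 were higher and 3 lower, where 12.8% and 18.6% of all genes were. The highest were Ccng2 (log2 ratio 1.99), the antiproliferative gene Btg2 (214 to 795 CPM; 1.90) and Tfdp2, an E2F partner (1.56). Gadd45b, the remaining Gadd45 gene, was lower (15 to 3.32 CPM; -2.17), as were Cdk6 (-1.83) and Myc (-1.68). From neurogenic-like to neuronal cells 5 were higher and 23 lower, where 23.8% of all genes were higher and 23.8% lower. The p19 inhibitor gene Cdkn2d was higher (34.8 to 99.7 CPM; 1.52) and Ccna2, the S phase cyclin, lower (125 to 2.71 CPM; -5.52).

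Within the cell cycle, phases assigned from S and G2/M genes separated the 2 E cyclins from the D cyclins in control progenitor-like cells. Ccne1 stood at 13.7 CPM in G1, 63.3 CPM in S and 33.4 CPM in G2/M, and Ccne2 at 11.1, 48.7 and 17.1 CPM. Ccnd1 varied less, at 979, 1343 and 1109 CPM. In control neurogenic-like cells Ccnd1 varied more widely, at 289 CPM in G1, 1589 CPM in S and 555 CPM in G2/M.

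Free RNA gives some UMIs in cells that do not express a gene, so shares of cells with a UMI were compared with those of red blood-like cells after thinning each cell to 2000 UMIs (shallower cells left out: 39 control and 43 DKO progenitor-like, 22 and 68 neurogenic-like, 11 and 14 red blood-like). Red blood-like cells, with medians of 8455 and 6323.5 UMIs, held a Gadd45a UMI in 8.37% of the control and 7.06% of the DKO cells and a Gadd45g UMI in 7.90% and 3.16%. Progenitor-like cells held Gadd45a in 9.83% and 5.45% and Gadd45g in 0.934% and 1.88%. The DKO Gadd45a share lay below the red blood-like one, and the control share (interval 8.88% to 10.8%) overlapped it (6.78% to 10.2%). Red blood-like cells thus gave no firm background level for Gadd45a either. The control and DKO progenitor-like shares did not overlap (8.88% to 10.8% and 4.68% to 6.32%). At these shares expression and free RNA cannot be told apart, so no difference in Gadd45a expression is read in progenitor-like cells. The Gadd45g share of red blood-like cells was itself well above that of control progenitor-like cells at equal depth, so these cells gave no background level for Gadd45g. At its low shares in progenitor-like cells and neurons (1.57% and 2.40%) expression and free RNA cannot be told apart, and its ratios between genotypes there are given as values only. A Cdkn1a UMI was found in 0.941% and 0.558% of red blood-like cells (2.61% and 2.17% unthinned), and the shares in cluster 3 (1.57% of control and 1.67% of DKO cells; 2.29% and 3.35% unthinned), DKO Six3-low cells (1.47%; 5.84% unthinned), cluster 14 (0.726%; 2.35% unthinned) and DKO cells of cluster 6 (1.17%; 2.22% unthinned) overlapped these in their intervals. Unthinned, the red blood-like shares were 23.5% and 16.3% for Gadd45a and 24.5% and 9.06% for Gadd45g. Ccnd1, by contrast, was found in 81.8% of control progenitor-like cells (98.3% unthinned) and 2.82% of control red blood-like cells (8.85% unthinned).

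Ccnd1 (ENSMUSG00000070348) lies on chr7:144929931-144939925 of GRCm38, minus strand, Ccnd2 (ENSMUSG00000000184) on chr6:127125162-127152193, minus strand, and Ccnd3 (ENSMUSG00000034165) on chr17:47505051-47599691, plus strand. In progenitor-like cells as a whole Ccnd1 stood at 1187 CPM in control and 1328 CPM in DKO (log2 ratio 0.16, interval 0.14 to 0.18). Ccnd2 stood at 126 (123 to 130) and 213 (207 to 218) CPM, 1.68-fold higher in DKO (log2 ratio 0.75, interval 0.70 to 0.81). This value joined unlike clusters. Ccnd2 gave 9.0% of control and 12.8% of DKO D cyclin UMIs in cluster 0. The shares were 10.6% and 9.69% in cluster 1 and 4.70% and 18.1% in cluster 5. Ccnd3 stood at 128 and 98.8 CPM (log2 ratio -0.38). Ccnd2 was thus the only D cyclin past 1.5-fold in this class. It was within it with cluster 4 added (0.39). Without integration Ccnd1 passed it (0.91) and Ccnd2 did not (0.33).

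Of the 10 members 3 were past 1.5-fold in progenitor-like cells (2 higher, 1 lower), where 10.2% of all genes were (6.5% higher, 3.71% lower). The other 2 were Gadd45g (6.70 and 14 CPM; log2 ratio 1.07) and Gadd45a (52.3 and 30.9 CPM; -0.76), 2 low levels from which no difference is read. The median log2 ratio of the members was 0.08, and that of all genes 0.03. Of the other G1 to S genes 1 of 38 passed, the inhibitor gene Cdkn2c (3.37 and 5.88 CPM; 0.81).

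**Figure D2:**
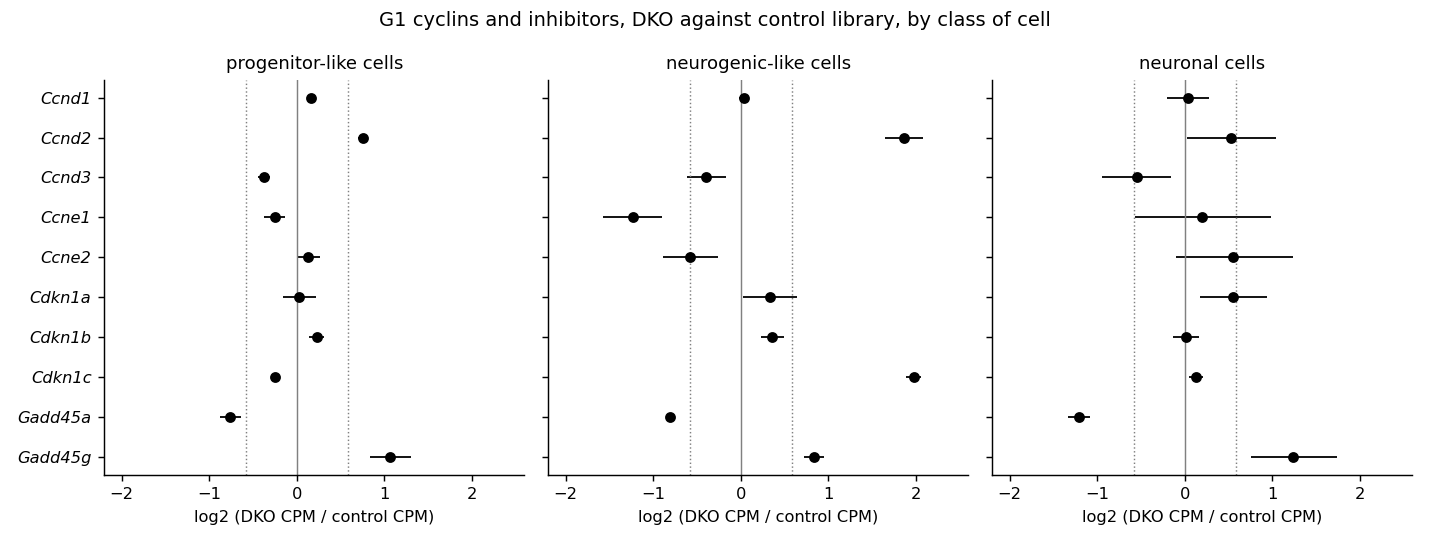
Log2 ratio of DKO to control level (horizontal axis) for each gene in progenitor-like, neurogenic-like and neuronal cells, with 95% counting intervals and dotted lines at 1.5-fold. Cdkn1c and Ccnd2 stand far to the right in neurogenic-like cells (1.97 and 1.86), and Gadd45a stands left of 1.5-fold in all 3 classes.

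The near-equal Ccnd1 levels of the whole class joined cells with very different levels. DKO cells were subclustered alone, and 1028 of 3123 DKO progenitor-like cells fell in subclusters whose Six3 level was below 50% of that in control cells, called Six3-low. Ccnd1 stood at 342 CPM in Six3-low and 1887 CPM in the other 2095 DKO cells (log2 ratio -2.46, interval -2.51 to -2.41). Against control cells it was lower in Six3-low cells (log2 ratio -1.79) and 1.59-fold higher in the others (0.67, interval 0.65 to 0.69), with 16.2% and 8.85% of all genes past 1.5-fold in these comparisons. Ccnd2 ran the other way, at 310 CPM in Six3-low and 157 CPM in the other DKO cells, a 1.98-fold difference (log2 ratio 0.98, interval 0.91 to 1.06). With the ciliary margin-like cluster 4 added to the class the Ccnd2 ratio was 0.34, within 1.5-fold.

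Of the 10 members 5 were past 1.5-fold between Six3-low and other DKO cells (1 higher, 4 lower), where 11% of all genes were (3.9% higher, 7.13% lower). Besides the D cyclins, Cdkn1a, the inhibitor known as a p53 target, stood at 18.9 CPM in the others and 8.18 CPM in Six3-low cells (log2 ratio -1.21, interval -1.58 to -0.86). Its thinned shares, 2.96% (2.27% to 3.78%; 10.9% unthinned) and 1.47% (0.827% to 2.42%; 5.84% unthinned), overlapped. No difference in Cdkn1a is therefore read. Ccne2 stood at 36.0 and 23.1 CPM (-0.64) and Gadd45a at 35.2 and 23.5 CPM (-0.59), both just past 1.5-fold. The Ccne2 ratio was -0.24 with Six3-low cells standardised to the phases of the others, within 1.5-fold, and no difference is read from the low Gadd45a levels. With Six3-low set at under 65% of control, Cdkn1a (-0.44) and Gadd45a (-0.20) were within 1.5-fold, Gadd45g passed it (1.15) and Cdkn1c stood at 0.55, against -0.27. At the 50% limit Cdkn1b was at 78.5 and 79.6 CPM, and Ccnd3, Ccne1, Cdkn1c and Gadd45g stayed within 1.5-fold. Of 38 other G1 to S genes none was higher and 5 were lower, Gadd45b (18.7 to 8.87 CPM; -1.07), Cdk6, a partner of the D cyclins (81.5 to 41.6 CPM; -0.97), E2f1 (-0.70), Cdkn2c (-0.60) and Cdt1 (-0.59).

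The Ccnd1 difference was of like size in each phase, with log2 ratios of -2.45 in G1, -2.50 in S and -2.34 in G2/M. The Ccnd2 difference was 0.27 in G1, 0.88 in S and 1.11 in G2/M, so it passed 1.5-fold in S and G2/M, where 11.8% and 10.3% of all genes did (16.1% in G1). The G1 values of both genes compare only 125 Six3-low with 56 other DKO cells. Ccnd2 stood there at 370 CPM (331 to 413) and 306 CPM (246 to 377), and a difference between phases was not tested. Fewer Six3-low than other DKO cells were called in S (27.6% and 46.3% thinned, 28.7% and 49.3% unthinned). More were called in G1 (12.3% and 2.72% thinned, 15.7% and 3.20% unthinned) and in G2/M (60.1% and 51.0% thinned, 55.6% and 47.5% unthinned). The summed level of the 10 progenitor markers was 4574 CPM in control, 3555 CPM in other DKO and 2225 CPM in Six3-low cells with none at 0, and that of the 7 ciliary margin markers was 253, 538 and 340 CPM, also with none at 0. The part of these marker differences in the Ccnd1 and Ccnd2 values was not tested.

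The 50% limit cut a range of levels. In subcluster 19, with Six3 at 52.2% of control, cluster 5 cells held Ccnd1 at 1312 CPM and Ccnd2 at 128 CPM. In subcluster 10, with Six3 at 60.2%, cluster 1 cells held Ccnd1 at 487 CPM and Ccnd2 at 198 CPM. Inside the limit, subcluster 5, with Six3 at 32.4%, held Ccnd1 at 292 CPM and Ccnd2 at 356 CPM in cluster 0, and subcluster 2, with Six3 at 32.9%, held Ccnd1 at 325 CPM and Ccnd2 at 316 CPM in cluster 5. At the other end, subcluster 6, with Six3 at 160% of control, held Ccnd1 at 3127 CPM in cluster 1 and 3165 CPM in cluster 5. Control cells of clusters 0, 1 and 5 held Ccnd1 at 1222, 1135 and 1233 CPM, between those extremes (plot of D cyclins against Six3).

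**Figure D3:**
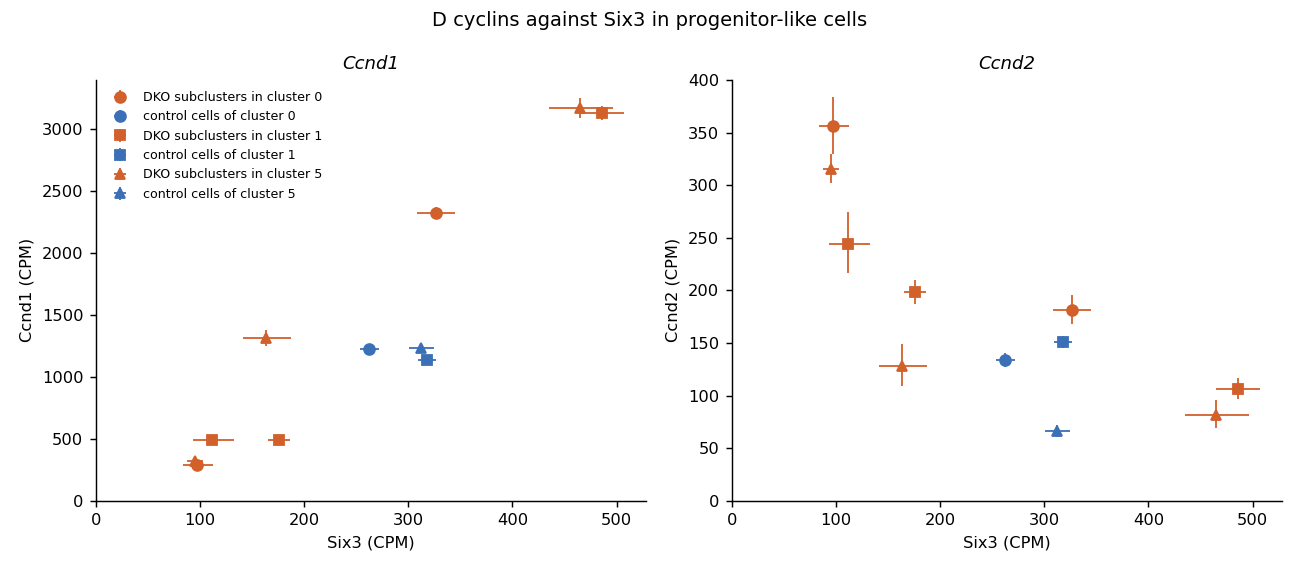
Ccnd1 and Ccnd2 levels (vertical axes, CPM, with exact 95% Poisson intervals) against the Six3 level (horizontal axis, CPM) for DKO subclusters within clusters 0, 1 and 5 and for control cells of the same clusters. The highest Ccnd1 level, 3165 CPM, belongs to a DKO subcluster with Six3 at 160% of control, and the lowest, 292 CPM, to one at 32.4%.

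The make-up of the D cyclin pool showed the same contrast. UMIs count 3' ends and are not scaled by gene length, so shares of the pool compare groups of cells rather than absolute amounts of protein. Ccnd1 gave 82.3% of D cyclin UMIs in control progenitor-like cells, 87.6% in the other DKO cells and 46.8% in Six3-low cells. Ccnd2 gave 8.76%, 7.29% and 42.4%. Cluster 14, with 425 DKO cells, 2 control cells and no class name (leading genes Fabp7, Fgfbp3 and Sox21), went further, with 34.4% Ccnd1 and 55.8% Ccnd2. In control cells outside the progenitor-like class the Ccnd2 share was 32.7% in the ciliary margin-like cluster 4 and 65.2% in lens cells.

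**Figure D4:**
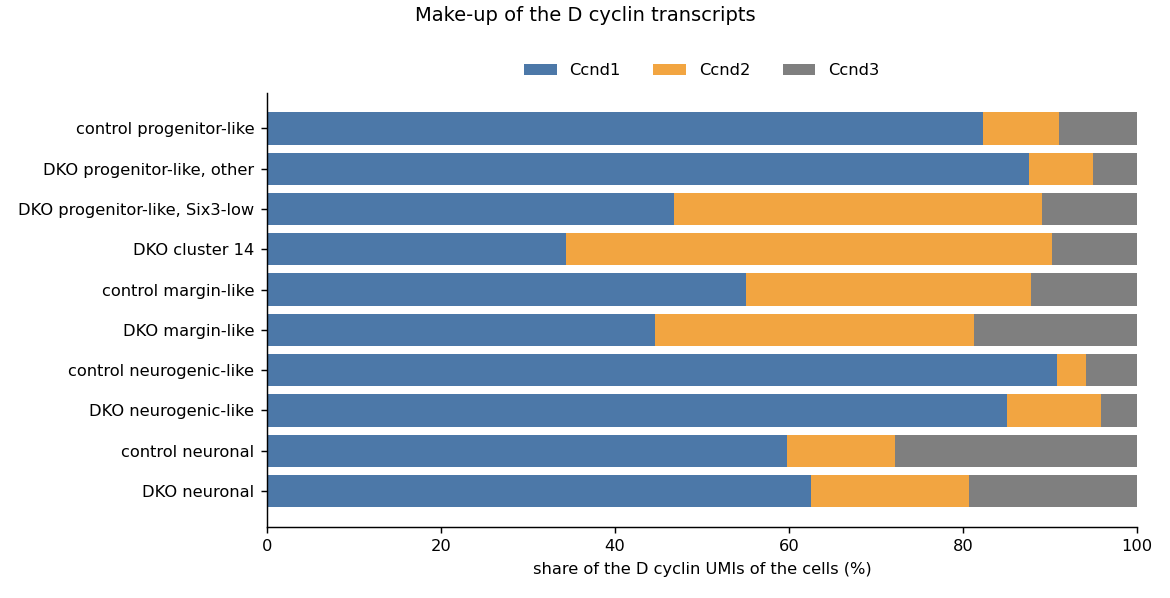
Share of D cyclin UMIs (horizontal axis, %) from Ccnd1, Ccnd2 and Ccnd3 in 10 groups of cells, 1 stacked bar per group. Ccnd2 takes 42.4% in Six3-low and 55.8% in cluster 14 cells, against 8.76% in control progenitor-like cells.

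Cluster 14 was compared with DKO progenitor-like cells, and 7 of 10 members were past 1.5-fold (23.0% of all genes). Ccnd1 stood at 298 against 1328 CPM (log2 ratio -2.15) and Ccnd2 at 483 against 213 CPM (1.19, interval 1.10 to 1.27). Ccne1 and Ccne2 were lower (-0.77 and -1.11). The Cdkn1a ratio (-1.56) rests on a thinned share of 0.726% (0.150% to 2.11%; 2.35% unthinned) in cluster 14. It overlapped that of DKO progenitor-like cells, 2.47% (1.95% to 3.08%; 9.25% unthinned), and no difference is read from it. The log2 ratios of Gadd45a (-0.65) and Gadd45g (0.86), also counted among the 7, rest on thinned shares of 4.36% (2.6% to 6.80%) and 3.39% (1.87% to 5.62%) in cluster 14 (10.8% and 7.53% unthinned), which overlapped the DKO progenitor-like ones (4.68% to 6.32% and 1.43% to 2.43%), and no difference is read from them. Its 10 progenitor markers summed to 1954 CPM with none at 0.

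The ciliary margin-like cluster 4, in which all markers of the ciliary margin and of the pigment epithelium led and whose leading genes are mostly pigment genes such as Pmel, Dct and Mitf, had a D cyclin balance of its own. In control cells it stood below progenitor-like cells for Ccnd1 (699 against 1187 CPM; -0.76) and Ccne2 (-1.46) and above them for Ccnd2 (415 against 126 CPM; 1.72), Cdkn1c (598 against 239 CPM; 1.32) and Gadd45g (2.06), so 5 of 10 members passed where 21.2% of all genes did. The thinned Gadd45g shares were 4.66% in cluster 4 (3.21% to 6.52%; 13.2% unthinned) and 0.934% in progenitor-like cells (0.648% to 1.30%; 4.54% unthinned). Control red blood-like cells held it in 7.90%, so the Gadd45g ratio is given as a value only. In DKO cells of this cluster Ccnd1 stood at 320 CPM (log2 ratio to control -1.13, interval -1.19 to -1.06), Ccnd2 at 264 CPM (-0.66, interval -0.74 to -0.58) and Ccne1 at 14.7 against 30.1 CPM (-1.03). These 3 of 10 members were past 1.5-fold, all lower (12.6% of all genes either way, 4.87% lower). Cdkn1c was within 1.5-fold there, at 598 and 632 CPM. The ratios compare unlike cells, since without integration 611 of the 691 control cells fell in a progenitor-like cluster, with 328 of the 1006 DKO cells, whereas 664 DKO and 43 control cells fell in a ciliary margin-like one. In the first of these clusters Ccnd2 stood at 415 CPM in control and 490 CPM in DKO cells, Ccnd1 at 767 and 639 CPM and Ccne1 at 27 and 18.6 CPM. The 664 DKO cells held Ccnd2 at 156 CPM, Ccnd1 at 172 CPM and Ccne1 at 12.6 CPM, so the lower Ccnd2 level of DKO cluster 4 lay in them.

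Anchor-based integration placed cells of both libraries in common clusters. When the libraries were instead merged without integration, 52.1% of DKO progenitor-like cells, but 17 of the 1028 Six3-low cells, fell in progenitor-like clusters together with control cells (96.2% of control cells did). These 1628 DKO cells are called shared, and the 1428 DKO cells in clusters of almost only DKO cells are called separate, of which 69.5% were Six3-low. Both clusters of separate cells were named ciliary margin-like in that merge, with 100% of the ciliary margin list and 50% and 60% of the progenitor list enriched. Six3 stood at 302 CPM in control, 406 CPM in shared and 91.5 CPM in separate cells.

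Ccnd1 stood at 1203 CPM in control, 2469 CPM in shared DKO cells and 370 CPM in separate ones. It was 2.05-fold higher than control in the former (log2 ratio 1.04, interval 1.02 to 1.06) and lower in the latter (-1.70, interval -1.74 to -1.66). Ccnd2 stood at 129, 153 and 260 CPM, within 1.5-fold of control in shared cells (0.25) and 2.02-fold higher in separate cells (1.01). Cdkn1a stood at 14.3, 21.1 and 9.80 CPM, with a log2 ratio of -1.10 between separate and shared cells, given as a value only. Opposite Ccnd1 differences thus lay under the class ratio of 0.16.

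Against control, 2 of 10 members were past 1.5-fold in shared cells (8.16% of all genes) and 5 of 10 in separate cells (14.8%). Both counts include Gadd45g (5.33 CPM in control, 8.75 in shared and 16.6 in separate cells). The second also includes Gadd45a (45.9 CPM in control and 25.4 in separate cells). No difference is read from these low levels. Between separate and shared cells 4 of 10 were past 1.5-fold (12.1%), Gadd45g among them. Cdkn1b, Cdkn1c and Ccne1 stayed within 1.5-fold in all 3 comparisons. The summed ciliary margin list was 567 and 598 CPM in the 2 clusters of separate cells and 178 to 300 CPM in control cells of the shared clusters, and its part in the result was not tested.

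**Figure D5:**
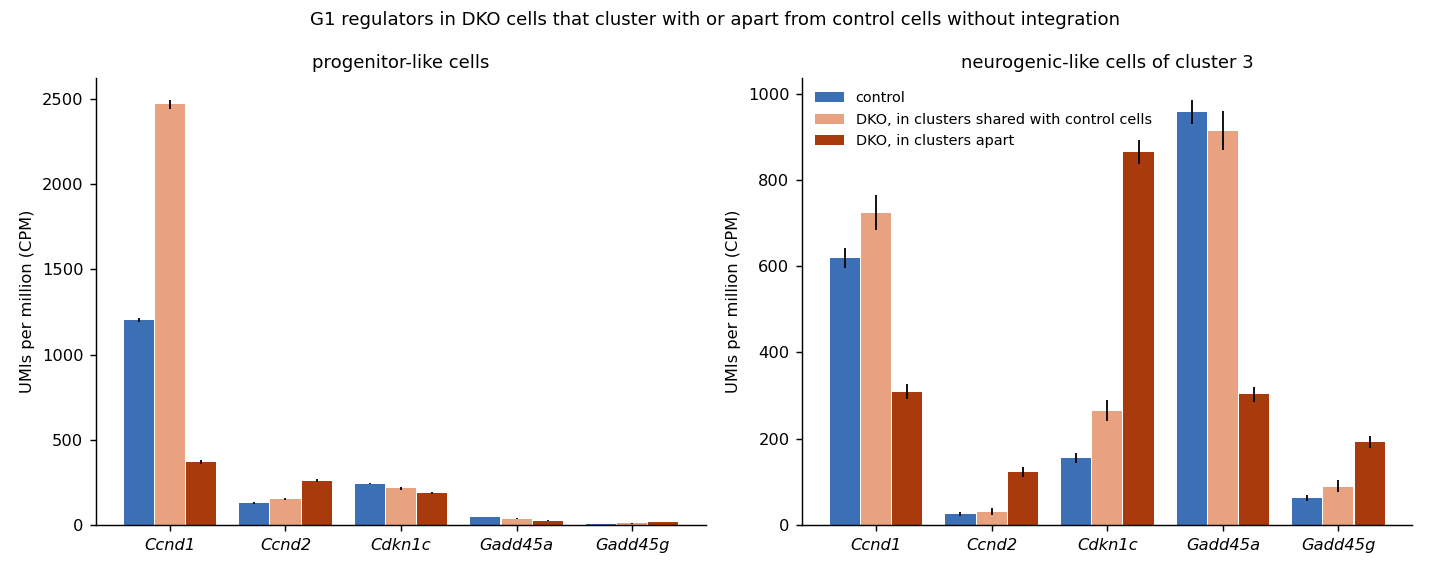
Levels (vertical axes, CPM) of 5 genes in control cells, DKO cells that cluster with them without integration (shared) and DKO cells that cluster apart (separate), for progenitor-like cells and for cluster 3, with exact 95% Poisson intervals. In progenitor-like cells Ccnd1 stands at 1203, 2469 and 370 CPM, and in cluster 3 Cdkn1c stands at 155, 264 and 864 CPM.

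Ccne1 (ENSMUSG00000002068) lies on chr7:38097984-38107534, minus strand, and Ccne2 (ENSMUSG00000028212) on chr4:11191351-11204779, plus strand. In progenitor-like cells both were within 1.5-fold between genotypes, Ccne1 at 43.0 and 36.0 CPM (log2 ratio -0.25, interval -0.37 to -0.14) and Ccne2 at 28.6 and 31.3 CPM (0.13, interval -0.00 to 0.26). In neurogenic-like cells Ccne1 stood at 27.6 CPM in control and 11.7 CPM in DKO (-1.24, interval -1.58 to -0.90). Ccne2 stood at 23.2 and 15.6 CPM, just within 1.5-fold (-0.58, interval -0.89 to -0.26). Ccne1 was the only cyclin lower in DKO neurogenic-like cells past this limit.

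The E cyclin levels differed between the neurogenic-like clusters. In control cells Ccne1 stood at 44.7 CPM in cluster 10, of which 82.0% of cells were called in G2/M (78% unthinned), and at 10.7 CPM in cluster 3, of which 65.1% were called in G1 (74.0% unthinned). In DKO cells the levels were 25.5 and 5.19 CPM, with 82.3% of cluster 10 in G2/M (82.3% unthinned) and 68.5% of cluster 3 in G1 (79.3% unthinned). Ccne1 was thus lower than control within both clusters (-0.81 and -1.05). In cluster 3 the difference lay in the 845 cells that fell in a forebrain-like cluster without integration (2.24 CPM, from 9 UMIs). The 380 DKO cells that fell with control cells held Ccne1 at 10.7 CPM, against 10.5 CPM in control. Ccne2 stood at 38.2 and 38.3 CPM in cluster 10 and at 8.44 and 4.85 CPM in cluster 3 of control and DKO cells. Of the other G1 to S genes 8 of 38 were lower in DKO neurogenic-like cells and none higher, where 5.72% of all genes were lower and 8.22% higher. Among the 8 were Cdk2, the partner of the E cyclins (22.0 to 11.3 CPM; -0.97), E2f1 (98.7 to 56.6 CPM; -0.80), E2f2 (-0.78) and Ccna2 (-0.73). The class again joined unlike clusters. In cluster 3, 9 of 35 were lower and 1 higher (14.7% of all genes either way). In cluster 10, 1 of 36 was lower and 2 higher (8.96% of all genes either way). Cells called in G1 made up 38.5% of control and 51.8% of DKO neurogenic-like cells (44.3% and 60.3% unthinned). With DKO cells standardised to the control phases the log2 ratio of Ccne1 was -0.97, still past 1.5-fold, whereas in the merge without integration it was -0.37.

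Cdkn1a (ENSMUSG00000023067) lies on chr17:29090976-29100727, plus strand, Cdkn1b (ENSMUSG00000003031) on chr6:134920401-134925513, plus strand, and Cdkn1c (ENSMUSG00000037664) on chr7:143458339-143461050, minus strand. In neurogenic-like cells Cdkn1c stood at 135 CPM (128 to 142) in control and 529 CPM (514 to 544) in DKO, 3.93-fold higher (log2 ratio 1.97, interval 1.88 to 2.06). Cdkn1b stood at 87.8 and 113 CPM (0.36) and Cdkn1a at 16.8 and 21.2 CPM (0.33), both within 1.5-fold. Cdkn1c was therefore the only inhibitor past 1.5-fold in the class as a whole. Cdkn1a passed this limit in 4 of 14 alternatives, with a log2 ratio of 0.82 without integration. In cluster 10 its thinned shares were 5.12% of control and 9.61% of DKO cells (16.9% and 19.7% unthinned). The intervals of the thinned shares overlapped, and no difference in Cdkn1a is read from them. After thinning, a Cdkn1c UMI was found in 18.4% of control and in 34.7% of DKO neurogenic-like cells (40.6% and 49.7% before), against 1.41% and 1.86% of red blood-like cells (4.66% and 5.25%).

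Across all members 5 of 10 were past 1.5-fold in neurogenic-like cells (3 higher, 2 lower), where 13.9% of all genes were (8.22% higher, 5.72% lower). The others were Ccnd2 (23.2 and 84.4 CPM; log2 ratio 1.86, interval 1.64 to 2.08), Gadd45g, Gadd45a and Ccne1. Without integration the log2 ratios were 1.01 for Ccnd2 and 0.70 for Cdkn1c. Ccnd1 was at 649 and 664 CPM (0.03, interval -0.02 to 0.08). This value again joined unlike clusters, since Ccnd1 was higher in DKO in cluster 10 (672 and 1145 CPM; 0.77) and lower in cluster 3 (626 and 437 CPM; -0.52, within 1.5-fold). Of the 10 members 6 were past 1.5-fold in cluster 10 (8.96% of all genes) and 7 in cluster 3 (14.7%).

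In control cells Cdkn1c was higher in neurons than in neurogenic-like cells (135 CPM), mainly in cluster 8. Cluster 7 held it at 221 CPM in control cells without and 174 CPM in those with an amacrine or horizontal marker UMI. In DKO cells the order was turned, since Cdkn1c stood at 202 CPM in progenitor-like, 529 CPM in neurogenic-like and 274 CPM in neuronal cells. The DKO neurogenic-like level was 2.62-fold above the progenitor-like one (log2 ratio 1.39, interval 1.33 to 1.44), where the control ratio was -0.83. The neuronal level was below the neurogenic-like one (-0.95, interval -1.02 to -0.88), where the control ratio was 0.89. The high DKO class level lay in 845 cells of cluster 3 at 864 CPM, which fell in a forebrain-like cluster without integration. DKO cells of cluster 10, at 223 CPM, and the 380 DKO cells of cluster 3 that fell with control cells, at 264 CPM, were not above DKO neurons. Of all genes 35.3% and 47.5% were past 1.5-fold in these comparisons of DKO classes. In neurons themselves Cdkn1c was at 250.3 and 274 CPM, within 1.5-fold (0.13). The difference between genotypes was present in G1 (154 and 703 CPM; 2.19), in S (124 and 283 CPM; 1.18) and in G2/M (127 and 395 CPM; 1.64).

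The Cdkn1c level differed among DKO neurogenic-like cells. In cluster 3 it stood at 157 CPM in control and 673 CPM in DKO (4.28-fold; log2 ratio 2.10, interval 1.99 to 2.21), and in cluster 10 at 112 and 223 CPM (1.99-fold; 1.0). In cells of cluster 10 without an amacrine or horizontal marker UMI the log2 ratio was 0.42, within 1.5-fold. DKO cells of cluster 3 with a Gadd45a UMI held Cdkn1c in 26.5% of cells (22.9% to 30.3%), and those without in 49.3% (45.3% to 53.3%), after thinning. In control cells of cluster 3 the shares were 20.7% and 18.7%, with overlapping intervals. Cdkn1c went with Ccnd2 in the DKO cells, where it was found in 66.9% of cells with a Ccnd2 UMI and 34.4% of cells without.

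Merging without integration separated these cells. Of the DKO cells of cluster 3, 380 fell with control cells and 845 in a cluster of 41 control and 2493 DKO cells led by Uncx, Rspo3, Lhx9 and Eomes. In that forebrain-like cluster 85.7% of the forebrain or thalamic eminence list led. So did 100% of the neuronal, 90% of the neurogenic and 87.5% of the ganglion list. Six3 stood at 301 CPM in the control cells, 379 CPM in the shared and 185 CPM in the separate DKO cells. Only 4 of the 380 shared and 15 of the 845 separate cells were Six3-low, unlike in the split of progenitor-like cells. Cdkn1c stood at 155 CPM in the control cells, 264 CPM in the shared and 864 CPM in the separate DKO cells. Its ratio to control was 1.70 in shared cells (log2 ratio 0.77, interval 0.60 to 0.94) and 5.58 in separate cells (2.48, interval 2.36 to 2.6). In shared cells it was the only call among the 9 members with enough UMIs (8.68% of all genes), with Ccnd2 at 24.6 and 30.4 CPM and Ccne2 at 8.61 and 8.45 CPM in control and shared DKO cells.

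In the separate cells all 10 members were past 1.5-fold of control (5 higher, 5 lower), where 19.7% of all genes were (9.4% higher, 10.3% lower). Besides Cdkn1c the higher ones were Ccnd2 (24.6 to 123 CPM; log2 ratio 2.32), Gadd45g (61.3 to 192 CPM; 1.64), Cdkn1a (6.09 to 11.2 CPM; 0.88) and Cdkn1b (73.7 to 115 CPM; 0.64). The lower ones were Gadd45a, Ccnd1 (618 to 309 CPM; -1.0), Ccnd3 (-0.63), Ccne1 (10.5 to 2.24 CPM; -2.23) and Ccne2 (8.61 to 2.74 CPM; -1.65). Cdkn1b and Cdkn1c were thus higher in these cells. Both E cyclins had lower levels on few UMIs, 50 and 9 for Ccne1 and 41 and 11 for Ccne2. Their thinned shares in DKO cells of cluster 3 were 0.753% and 0.921% (2.39% and 1.84% unthinned). These overlapped the control and the red blood-like shares in their intervals, so the size of these differences is not read. The Cdkn1a levels rest on 29 and 45 UMIs, with shares in cluster 3 that overlapped those of red blood-like cells. No difference is read from Cdkn1a. The 10 neuronal markers moved with the same split, summing to 4528 CPM in control, 4444 CPM in shared and 6867 CPM in separate cells with none at 0 (Dcx at 21.6, 37.8 and 303 CPM), while the 10 neurogenic markers summed to 4268, 4273 and 2906 CPM. Their part in these values was not tested. Between separate and shared DKO cells 6 of 8 members tested passed (17.8% of all genes).

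Markers of other cell types moved with this split. The 7 forebrain or thalamic eminence markers summed to 128 CPM in control cells, 93.0 CPM in shared and 449 CPM in separate DKO cells, with Eomes at 0, 2.25 and 139 CPM, Rspo3 at 65.3 CPM in separate cells, and Trp73 at 0 in all 3. Reln, at 124, 80.6 and 141 CPM, gave most of the sums of control and shared cells. The 8 amacrine or horizontal markers summed to 142 CPM in control and 176 CPM in DKO cells of cluster 3, with Lhx1 at 0 in control. In cells of cluster 3 without a UMI of that list, 391 control and 624 DKO cells, the Cdkn1c log2 ratio was 1.70 (interval 1.54 to 1.88). In such cells of cluster 10, 221 control and 178 DKO cells, it was 0.42 (interval 0.12 to 0.72), within 1.5-fold. In cluster 10, with the log2 ratio of 1.0 given above, the first list summed to 114 and 120 CPM, with Reln at 107 and 73.1 CPM, and with Eomes (0.418 and 8.16 CPM), Rspo3 (0.626 and 15.6 CPM) and Lhx9 (2.92 and 11.4 CPM) at higher levels in DKO cells. The part of the forebrain list in these ratios was not tested.

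Gadd45a (ENSMUSG00000036390) lies on chr6:67035096-67037457, minus strand, and Gadd45g (ENSMUSG00000021453) on chr13:51846678-51848468, plus strand. The 2 genes were highest together in control neurogenic-like cells but differed from control in opposite directions in DKO cells, so the sequence before their start sites is shown, from RefSeq with build GRCm38.p6, in transcript orientation. Capitals mark matches on either strand to the motifs searched, which were the E-box CATCTG, the E-box CAGCTG, the E-box CACGTG, the TATA box TATAAA, the E2F motif TTTCGCGC and the other E2F motif TTTGGCGC. The stretches are chr6:67037458-67037657 (minus strand) and chr13:51846425-51846674 (plus strand).
Gadd45a: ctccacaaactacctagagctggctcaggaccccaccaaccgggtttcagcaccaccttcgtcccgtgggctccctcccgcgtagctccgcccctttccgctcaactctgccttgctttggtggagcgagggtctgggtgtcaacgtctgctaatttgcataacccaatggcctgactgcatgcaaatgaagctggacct
Gadd45g: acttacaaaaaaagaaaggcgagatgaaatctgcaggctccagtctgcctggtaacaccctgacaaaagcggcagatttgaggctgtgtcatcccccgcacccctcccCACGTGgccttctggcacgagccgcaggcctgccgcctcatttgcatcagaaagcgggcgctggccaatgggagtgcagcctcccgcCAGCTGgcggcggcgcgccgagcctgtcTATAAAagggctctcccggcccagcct

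The Gadd45g stretch held CACGTG at base 109, CAGCTG at base 196 and TATAAA at base 224, counted from its first base. The Gadd45a window of 300 bases around its start held none of the 6 motifs. Among 32851 promoters of this length CACGTG was found in 7.15%, CAGCTG in 16.3%, CATCTG in 17.2% and TATAAA in 13.6%, and the E2F motifs in 0.323% and 0.514%, on either strand and counted separately. Promoter windows were found for 6 of the 10 members, 8 windows in all, and the remaining match was 1 CAGCTG in a window of Cdkn1a. These matches describe letters and not binding.

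Gadd45a stood at 919 CPM (900 to 938) in control and 525 CPM (510 to 540) in DKO neurogenic-like cells (log2 ratio -0.81, interval -0.86 to -0.76). Gadd45g stood at 100.5 CPM (94.2 to 107) and 180 CPM (171 to 189), 1.79-fold higher (0.84, interval 0.72 to 0.96). The genes thus differed in opposite directions in the class where both were highest. After thinning, Gadd45a was found in 80.5% of the control and 52.7% of the DKO cells (97.0% and 69.6% before) and Gadd45g in 14.5% and 25.0% (30.1% and 43.9%). The Gadd45a shares were above those of red blood-like cells.

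Within cluster 3 the lower Gadd45a level lay in the separate cells. It stood at 958 CPM in control, 914 CPM in shared DKO (log2 ratio -0.07, interval -0.15 to 0.01) and 303 CPM in separate DKO cells (-1.66, interval -1.76 to -1.57). The neurogenic factor Atoh7 stood at 2924 CPM in control, 3002 CPM in shared and 1098 CPM in separate cells. Gadd45g stood at 61.3, 88.5 and 192 CPM, so the shared cells lay between the others (0.53, within 1.5-fold). Cluster 10 held Gadd45a at 888 and 625 CPM (-0.51, within 1.5-fold) and Gadd45g at 141 and 224 CPM (0.67).

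In neuronal cells 2 of 10 members were past 1.5-fold (1 higher, 1 lower), where 13% of all genes were (8.23% higher, 4.78% lower). Gadd45a stood at 177 CPM (168 to 186) in control and 76.5 CPM (71.4 to 81.8) in DKO (log2 ratio -1.21, interval -1.33 to -1.09). It stood at 259 and 137 CPM in cluster 7 (-0.91) and at 66.4 and 40.2 CPM in cluster 8 (-0.72). The thinned Gadd45a shares of cluster 8, 10.7% (7.67% to 14.4%; 41.8% unthinned) and 7.24% (5.59% to 9.21%; 26.7% unthinned), overlapped those of red blood-like cells, so no difference is read there. The 10 neurogenic markers moved with Gadd45a in neuronal cells, summing to 873 CPM in control with none at 0 and 453 CPM in DKO with 1 at 0, and the 10 neuronal markers summed to 27039 and 30087 CPM. Their part in the Gadd45a ratio was not tested. Cluster 8 held 359 of 966 control and 848 of 1520 DKO neurons. Gadd45g stood at 5.92 and 13.9 CPM (1.23), with 6.0 and 26.9 CPM in cluster 7 and 5.80 and 6.20 CPM in cluster 8. Its thinned share in cluster 7 was 2.0% (1.04% to 3.46%; 4.12% unthinned) in control and 4.42% (2.98% to 6.29%; 11.5% unthinned) in DKO cells, with overlapping intervals. Cdkn1a (0.55, interval 0.18 to 0.94), Ccnd3 (-0.55) and the other members stayed within 1.5-fold.

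Gadd45a was also lower in DKO cells of the amacrine or horizontal-like cluster 17 (448 and 232 CPM; -0.95) and the photoreceptor-like cluster 19 (371 and 188 CPM; -0.98), which held 126 to 191 and 93 to 114 cells per library. The 8 amacrine or horizontal markers of cluster 17 also differed, summing to 1533 CPM in control and 2260 CPM in DKO cells with none at 0, and their part in the Gadd45a ratio was not tested. Gadd45a was the only member past 1.5-fold in either cluster, of 4 and 6 members tested (12.6% and 11.1% of all genes). Of the 10 named retinal clusters of both libraries Gadd45a was past 1.5-fold and lower in 7, of which clusters 0, 5 and 8 have low levels from which no difference is read, and within it in clusters 1 (-0.49), 10 (-0.51) and 4 (-0.00). The share of all genes that were lower was 3.91%, 2.62% and 5.16% in the progenitor-like clusters 0, 1 and 5, 6.45% and 3.49% in clusters 3 and 10 (neurogenic-like), 4.87% in cluster 4, 3.91% and 3.94% in the neuronal clusters 7 and 8, 6.73% in cluster 17 and 4.38% in cluster 19. Cluster 6, led by Uncx, Rspo3, Lhx9 and Tac1 and made of 1307 DKO and 77 control cells, held Gadd45a at 82.1 CPM in DKO, close to the 76.5 CPM of DKO neurons (0.10). Its 77 control cells held Gadd45a at 648 CPM and in 66.2% of cells after thinning (54.6% to 76.6%; 93.5% unthinned), against 12.4% of DKO cells (28.2% unthinned). Gadd45g stood at 55.1 CPM in DKO cells of cluster 6 and 13.9 CPM in DKO neurons (1.99), and Cdkn1a at 5.96 and 15.9 CPM (-1.42). These 2 ratios are given as values only. The Cdkn1a share of DKO cells of cluster 6 overlapped that of red blood-like cells, and the Gadd45g level of neurons was low. In this comparison 3 of 10 members passed (2 higher, 1 lower), where 17.7% of all genes did.

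As a description of patterns, each member was compared with 5737 genes over 23 cluster levels of both libraries, as Pearson's r of log2(CPM + 10); the points share libraries and cells and carry no p. The gene most like Gadd45a was Atoh7 (0.947), and the gene most like Gadd45g was Sstr2 (0.908). Ccnd1 was most like Nop58 (0.971), Ccnd2 like Bmpr1b (0.943), Ccnd3 like Desi2 (0.957), Ccne1 like Skp2 (0.961) and Ccne2 like Fam111a (0.959). The inhibitors had no such close partner, with the highest r at 0.596 for Cdkn1a (Dnajc21), 0.819 for Cdkn1b (H1f0) and 0.749 for Cdkn1c (Lrba). Among the members themselves r was 0.902 for Ccne1 with Ccne2, 0.847 for Ccnd1 with Ccne1 and 0.681 for Gadd45a with Gadd45g, and -0.574 for Ccnd2 with Gadd45a.

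Lens cells, dissected with the retina, gave the highest Cdkn1c levels of the clusters described, at 2581 CPM in 214 control and 1483 CPM in 256 DKO cells. Ccnd2 stood there at 936 and 1011 CPM and Ccnd1 at 360 and 332 CPM. Median depth in these cells was 18235.5 and 10123.5 UMIs.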

How the data were processed

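Counts were deposited as 2 gene-by-cell matrices, in which the authors had mapped reads to mm10 with Cell Ranger 3.1.0 and counted UMIs per gene and cell barcode. Genes overlapping on the opposite strand were LTO1 (Ccnd1), Ints8 (Ccne2), Bysl (Ccnd3) and 5 other gene models, and no member overlapped a gene on its own strand in GENCODE. The filters of the study were applied (over 200 and below 6000 genes per cell, mitochondrial share of UMIs below 20%), which leaves the cell numbers the study gives. Libraries were normalised and integrated in Seurat 5.3.0 (R 4.3.3) with 2000 variable genes, 20 dimensions and resolution 0.5, after leaving out 69 genes: the members, 40 other G1 to S genes, Six3, Six6, hemoglobin and sex-linked genes. Clusters were named where at least 75% and at least 3 of a marker list were enriched. The names are rebuilt and may differ from those of the study.

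UMIs of a class were summed per library and divided by the class total (CPM). With 1 library per genotype no test was made. Exact Poisson and Clopper-Pearson 95% intervals (SciPy 1.17.1, Python 3.11.15) cover counting error only. Phases were scored with scanpy 1.11.5 on cells thinned to 2000 UMIs, without members or other G1 to S genes. Doublets were scored with Scrublet and kept, except cluster 15, of which 98.0% of cells were in the top 5% of scores.

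Results are given for all 10 members, but some counts of members past 1.5-fold stand without every name. Of the other G1 to S genes, up to 4 with the highest and 4 with the lowest ratio past 1.5-fold are named. The members, lists and comparisons were chosen with earlier results of these data known. Keeping clusters 6 and 15 out of the neuronal class, the comparisons of clusters 4, 6 and 14 and the split into shared and separate cells were chosen after the data were seen. Alternatives to the clustering, depth, scaling, phase and class choices were run, with 8 more added later. Counts of the Cre vector used by the study were not analysed here, so Six3 levels stand in for them.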

Additional observations from a re-analysis of the deposited data

Results flagged for a closer look

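For 3 cyclins the ratio of DKO to control passed 1.5-fold in opposite directions in different clusters, among the 10 named retinal clusters of both libraries. The log2 ratio of Ccnd1 was 0.77 in the neurogenic-like cluster 10 and -1.13 in the ciliary margin-like cluster 4, higher in 1 cluster and lower in 1. That of Ccnd2 was 1.91 in the neurogenic-like cluster 3 and -0.66 in cluster 4, higher in 5 clusters and lower in 1. That of Ccne2 was 1.33 in the progenitor-like cluster 5 and -0.80 in cluster 3, higher in 2 clusters and lower in 1. DKO cells of cluster 5 were themselves unlike. Of 981, 594 belonged to the Six3-low subcluster 2, with Ccne2 at 22.3 CPM, whereas subclusters 6 and 19 held it there at 9.42 and 7.16 CPM. In cluster 4, 611 of 691 control but 328 of 1006 DKO cells fell in a progenitor-like cluster without integration, so its ratios compare unlike cells. The same holds for cluster 3, of which 845 of 1253 DKO cells fell in a forebrain-like cluster. Among the cells of cluster 3 that fell with control cells, Ccnd2 stood at 24.6 CPM in control and 30.4 CPM in DKO and Ccne2 at 8.61 and 8.45 CPM. The differences between clusters were not tested, because each genotype had 1 library.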

How the results depend on the processing

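No paired analysis was possible because there was only 1 library of each genotype. Of 31 member ratios past 1.5-fold in the 6 main comparisons, 28 kept their direction in every alternative that gave a value and 16 also stayed past 1.5-fold. The 3 that turned were Cdkn1a in Six3-low against other DKO cells (0.11 without integration, main -1.21, with 21 Six3-low cells left in the class), Cdkn1a in neuronal against neurogenic-like control cells (0.86 with cluster 3 alone, main -0.63) and Ccne1 in neurogenic-like against progenitor-like control cells (0.057 with cluster 10 alone, main -0.64). Members past 1.5-fold between Six3-low and other DKO cells numbered 3 of 10 with cells thinned to 2000 UMIs and 3 with 10 CPM added, against 5. Between neuronal DKO and control cells they numbered 4 after standardising to the control phases and 4 with cluster 6 added, against 2. Between progenitor-like DKO and control cells 1 was left with cluster 4 added, against 3. The share of all genes past 1.5-fold is not given for these settings, so the changes in these counts are not read as particular to the members. Without integration Ccnd1 in progenitor-like cells stood at 0.91 (main 0.16), and Ccnd2 (0.33) and Gadd45a (-0.15) there, Ccne1 (-0.37) and Gadd45a (-0.28) in neurogenic-like cells and Gadd45g (0.25) in neurons were within 1.5-fold; that setting keeps only DKO cells that cluster with control cells. The other causes were not tested. Depth limits low members such as Ccne1 and Ccne2 in neurons, with levels under 6 CPM.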
